A study of Homo sapiens with 7 samples.

Results

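ATP-binding cassette (ABC) transporters were described in the RNA-seq libraries of a melanoma line after knockdown of the long non-coding RNA GRASLND. Members were the genes whose symbol in the expression table is ABC, a subfamily letter from A to G and a number. This rule found 35 of the 21305 genes of the table, with 10 in subfamily A, 8 in B, 7 in C, 4 in D, 1 in E, 3 in F and 2 in G. It leaves out the pseudogenes ABCA11P and ABCA15P, the readthrough gene ABCF2-H2BK1 and the relatives TAP1 and TAP2, which carry other names.

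The cells were 501Mel, a human melanoma line of melanocytic type, with a lentiviral short hairpin RNA that doxycycline switches on. Such a hairpin is trimmed in the cell to a short strand that directs the breakdown of RNA it pairs with. Of the 7 libraries, 3 carried the control hairpin shlacZ, directed at a gene of bacteria that human cells lack, 2 carried sh4 and 2 carried sh8, both directed at GRASLND. The labels do not tie sh4 and sh8 to the names shGRAS1 and shGRAS2 of the study. Every group, the control included, carried a hairpin and received doxycycline, which the study's methods give as 2 µg/mL, with RNA taken after 3 days. The methods describe selected stable cultures rather than single clones. The labels do not say whether the replicates were separate cultures, so p-values measure only the spread between these samples, which may be technical.

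ABC proteins use the energy of ATP to move substrates across membranes, and most pair nucleotide-binding domains with membrane-spanning domains. Subfamily A moves mainly lipids, and B and C hold the best-known drug exporters together with mitochondrial, lysosomal and bile transporters. D mainly imports fatty acids into peroxisomes, with ABCD4 linked to cobalamin instead, and G moves sterols and drugs. Members of E and F lack membrane domains and act on ribosomes and translation. ABCB5 is known in melanoma as a marker of drug-tolerant and tumour-initiating cells, and it is also expressed in pigment cells.

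Depth ranged from 13337317 to 22855232 reads per library. Within the shlacZ group the first library stood farther from the others, with a root mean square log2 difference of 0.64 and 0.63 over all tested genes, against 0.47 between the other pair of controls, 0.51 between the sh4 libraries and 0.54 between the sh8 libraries. GRASLND had normalized counts of 309, 330 and 290 with shlacZ, 175 and 131 with sh4 and 227 and 163 with sh8. Each of the 4 knockdown values was below each control value, with a log2 fold change of -0.85 (SE 0.19, adjusted p = 0.0402, limma). That p passed without the first sh8 library and missed the threshold without any other, at up to 0.182. The exact permutation test over the libraries gave a two-sided p of 0.0571, which is the smallest it can give for groups of 4 and 3. Taken singly, GRASLND passed under sh4 (log2 fold change -1.02, SE 0.21, adjusted p = 0.00662, limma). It did not pass under sh8 (-0.68, SE 0.21, adjusted p = 0.110, limma). The difference between the hairpins did not pass either (-0.34, adjusted p = 0.421, limma). Without the first shlacZ library the 4 comparisons described here called 1, 8, 2 and 2 ABC genes, against 3, 8, 2 and 2 with it.

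The members spanned a wide range of levels. Normalized counts were divided by the length of the canonical transcript in kilobases (kb) wherever genes are compared with each other. In the shlacZ libraries ABCE1, the factor that splits ribosomes for recycling, stood highest at 1291 ± 229 per kb (SD, n = 3). ABCC2, an exporter of glutathione and glucuronide conjugates, followed at 856 ± 55.4 per kb, ABCD3, a peroxisomal fatty acid importer, at 837 ± 83.8 per kb and ABCF1, which takes part in translation initiation, at 804 ± 138 per kb. ABCC2, ABCD3 and ABCF1 did not differ beyond their spread. A clear step lay below them, since ABCC5, an exporter of cyclic nucleotides, was at 297 ± 32.5 per kb, and ABCF3, ABCC1 and ABCC4 lay between 209 and 245 per kb. ABCB5 was in rank 21 of 35 with 45.8 ± 9.21 per kb, between ABCA5 at 57.0 ± 21.7 and ABCB9 at 41.1 ± 7.39 per kb, from which its spread did not separate it.

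By subfamily, the summed shlacZ level was 1686 ± 55.8 per kb for C, 1291 ± 229 for E, 1241 ± 48.6 for D, 1218 ± 182 for F, 793 ± 88.3 for B, 187 ± 42.6 for A and 2.15 ± 0.90 for G. E, D and F did not differ beyond their spread. Subfamily A thus held the most members and 2.96% of the summed level, whereas the single member of E held 20.0%. With the length of all merged exons, an alternative added after seeing the data, D held 16.0% and F 20.8%, against 19.4% and 18.9% with the canonical transcript. The leading member was ABCA2, a lipid transporter of endosomes and lysosomes, in A (79.6 ± 13.0 per kb), ABCB6, a porphyrin transporter, in B (196 ± 50.8 per kb), ABCC2 in C, ABCD3 in D and ABCF1 in F. In B, ABCB10 at 156 ± 12.6 per kb lay within the spread of ABCB6. With merged exons ABCB10 led instead, at 142 ± 11.4 against 112 ± 29.1 per kb for ABCB6. In G, ABCG5, a sterol exporter, at 1.12 ± 1.10 per kb and ABCG4 at 1.03 ± 0.28 per kb were not separable.

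**Figure D1:**
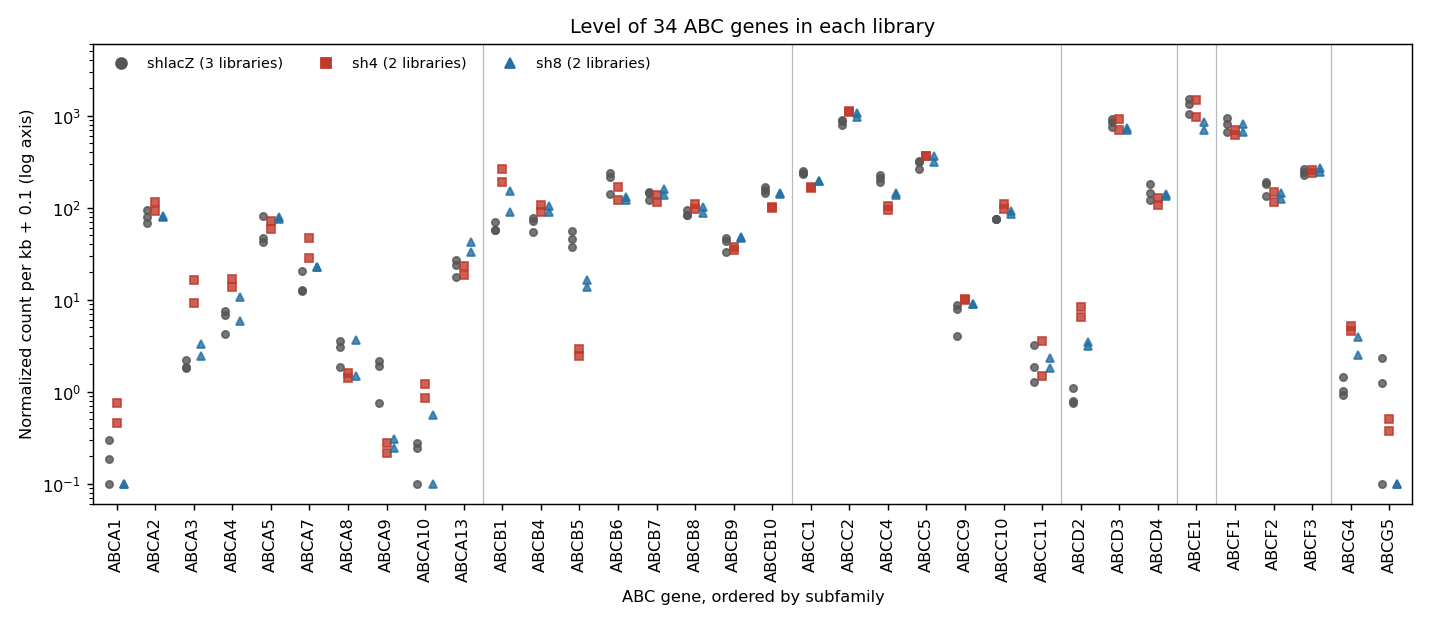
Normalized count per kb of canonical transcript plus 0.1, on a log axis, for 34 ABC genes, with 1 point per library (circles shlacZ, squares sh4, triangles sh8) and vertical lines between subfamilies. ABCE1, ABCC2, ABCD3 and ABCF1 form the top level, ABCA1, ABCA9, ABCA10 and ABCG5 lie at the bottom, and ABCB5, ABCD2 and ABCA3 show gaps between the groups.

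The sum over the whole family was 6418 ± 508 per kb with shlacZ, 6436 ± 601 with sh4 and 5790 ± 197 with sh8. The range of shlacZ (5881 to 6893 per kb) overlapped that of sh4 (6011 to 6862 per kb) and that of sh8 (5651 to 5930 per kb). Subfamily C was at 1853 ± 41.4 per kb under sh4 and 1788 ± 40.7 under sh8, and E at 1228 ± 367 and 779 ± 105. Subfamily G, almost entirely ABCG4 under the hairpins, was at 5.11 ± 0.48 per kb under sh4 and 3.10 ± 1.0 under sh8. No test was run on these sums.

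Of the 35 members in the table, 4 were near zero, below the mean of 10 over the 7 libraries that a gene needed to be tested. The table holds no gene with under 10 reads in sum, and 4633 of its genes have no symbol. ABC genes absent from it or unnamed in it are therefore not counted here or in the subfamilies. ABCA1, the cholesterol exporter that loads high-density lipoprotein, had 0, 2 and 1 reads with shlacZ, 6 and 5 with sh4 and 0 in both libraries with sh8. ABCA10 had 0, 1 and 1 reads, then 4 and 9, then 0 and 3, and ABCG5 had 0, 3 and 7, then 1 and 1, then 0 and 0. ABCA9, another lipid transporter of the A subfamily, had 4, 11 and 15 reads with shlacZ and 1 read in each of the 4 knockdown libraries. ABCA9 was thus low everywhere but lower in every knockdown library than in any control. With no minimum mean ABCA9 was called as well, with both hairpins together and under sh4. At such counts a change in ABCA1, ABCA10 or ABCG5 was not detectable at this depth. The 5 tested members with the lowest means were ABCG4 (10.2), ABCC11 (12.5), ABCA8 (13.6), ABCD2 (21.0) and ABCA3 (34.3). ABCG4 and ABCD2 reached the minimum only through the knockdown libraries, where they were high, with shlacZ means of 3.93 and 4.92. Counts of members that include them depend in part on this filter. Of the 35 members, 32 had at least 1 read in every library.

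The remaining 31 members were tested. A gene passed at a Benjamini-Hochberg adjusted p under 0.05 over all 15420 tested genes, and was called if its log2 fold change also exceeded 1 in size, the limits used in the study. Fold changes are on the scale of log2(normalized count + 1), which understates the change of low genes. The first comparison, of all 4 knockdown libraries with the 3 shlacZ libraries, asked which members changed with GRASLND knockdown. ABCD2 and ABCB1 rose, and ABCB5 and ABCC4 fell. These were 2 of 31 members higher, against a background of 2.55% of all tested genes, and 2 lower, against 2.06%. Called were 3 of 31 (9.68%), against 1.99% of all tested genes. These counts include ABCD2, which reached the minimum mean only through the knockdown libraries. The median log2 fold change was 0.12 over the members and -0.01 over all tested genes.

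Under sh4 alone, 8 members passed as higher, against 10.5% of all tested genes, and 4 as lower, against 11.9%. Called were 8 of 31 (25.8%), against 8.16% of all tested genes. The called genes include ABCD2 and ABCG4, which reached the minimum mean only through the knockdown libraries. All called under sh4 were ABCD2, ABCA3, ABCG4, ABCB1, ABCA4 and ABCA7, which rose, and ABCB5 and ABCC4, which fell. Under sh8 alone, ABCD2 passed as higher, against 1.38% of all tested genes, and ABCB5 and ABCC4 as lower, against 1.54%. Called were 2 of 31 (6.45%), ABCB5 and ABCD2, against 1.15% of all tested genes. Here too ABCD2 was tested only because of its level in the knockdown libraries. The median log2 fold change of the members was 0.21 under sh4 and 0.10 under sh8. All 3 comparisons with shlacZ use the same control libraries.

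**Figure D2:**
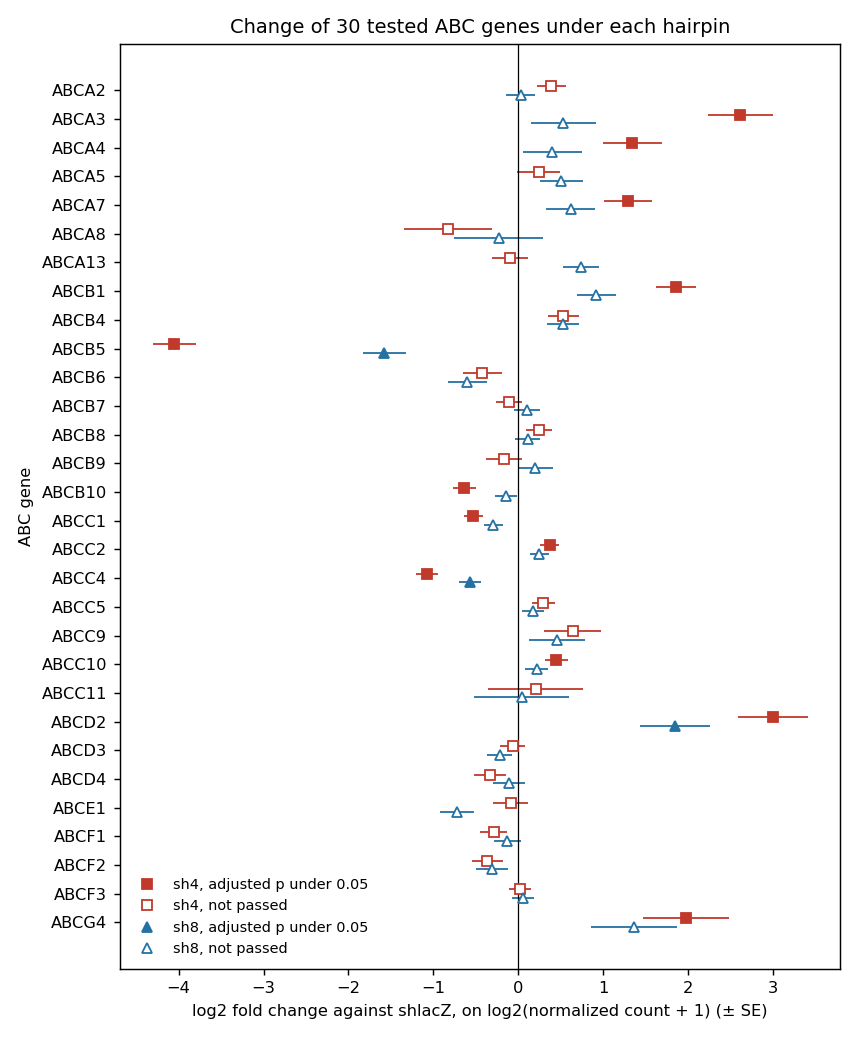
Log2 fold change against shlacZ with its SE for 30 tested ABC genes under sh4 (squares) and sh8 (triangles), filled where the adjusted p was under 0.05. ABCB5 is lowest at -4.05 under sh4 and -1.58 under sh8, and ABCD2 is highest at 3.0 and 1.85.

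ABCB5 (ENSG00000004846, chromosome 7, 20615667 to 20777038 on the plus strand of hg38) showed the deepest fall among the tested members. Its normalized counts were 198, 296 and 241 with shlacZ, 12.4 and 14.9 with sh4 and 73.8 and 87.4 with sh8. The 3 groups did not overlap, with sh4 lowest and sh8 between. The level was 17.9-fold lower under sh4 and 3.04-fold lower under sh8 by the ratio of means. The log2 fold change was -2.82 (SE 0.63, adjusted p = 0.0383) for both hairpins together, -4.05 (SE 0.25, adjusted p = 4.57e-05) for sh4 and -1.58 (SE 0.25, adjusted p = 0.0124) for sh8. The exact permutation test for both hairpins gave a two-sided p of 0.0571, its smallest value. The sh4 call held without any 1 library, whereas the sh8 call was lost without the second shlacZ library (-1.43, adjusted p = 0.0604), the first sh8 library (-1.46, adjusted p = 0.110) or the second (-1.70, adjusted p = 0.0864).

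Most melanocytic markers were also lower under sh4. Of 8 such markers, all listed, MITF, SOX10, PMEL, MLANA, TYRP1 and DCT passed as lower under sh4, where 11.9% of all tested genes did. With both hairpins together 1 of 8 passed, PMEL (log2 fold change -0.91, adjusted p = 0.0443). Under sh8, where ABCB5 passed, 0 of 8 markers passed by limma or by limma-voom, and 6 of 8 had an unadjusted p under 0.05, of which 5 were lower and 1, PAX3, was higher. PAX3, a regulator of MITF, had a log2 fold change of 0.49 with sh8 (adjusted p = 0.0512) and 0.11 with sh4 (adjusted p = 0.545). MITF was at -0.13 with sh8 (adjusted p = 0.658). Their summed normalized count ranged from 137321 to 148252 with shlacZ, from 53726 to 61676 with sh4 and from 104063 to 106927 with sh8. DCT, a melanin synthesis enzyme, fell most, from a mean of 12477 to 1298 under sh4 (log2 fold change -3.31, adjusted p = 8.48e-05), with 6105 under sh8 (-1.0, adjusted p = 0.0734). TYR, the first enzyme of melanin synthesis, had means of 8803, 9736 and 10257 in shlacZ, sh4 and sh8 and did not pass. The part of the melanocytic programme in the ABCB5 result was not tested, and fewer cells of a type cannot be told apart from less RNA per cell in bulk samples. Of the other cell types, none of 4 keratinocyte and 3 endothelial markers was listed, 2 of 5 fibroblast markers summed to between 6.28 and 19.4 over the libraries, and of 5 leukocyte markers only CD68 and LYZ were listed. LYZ was at 1.98 in shlacZ, 414 in sh4 and 6.28 in sh8 (mean normalized counts), while the defining leukocyte genes PTPRC and CD3E were not listed.

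**Figure D3:**
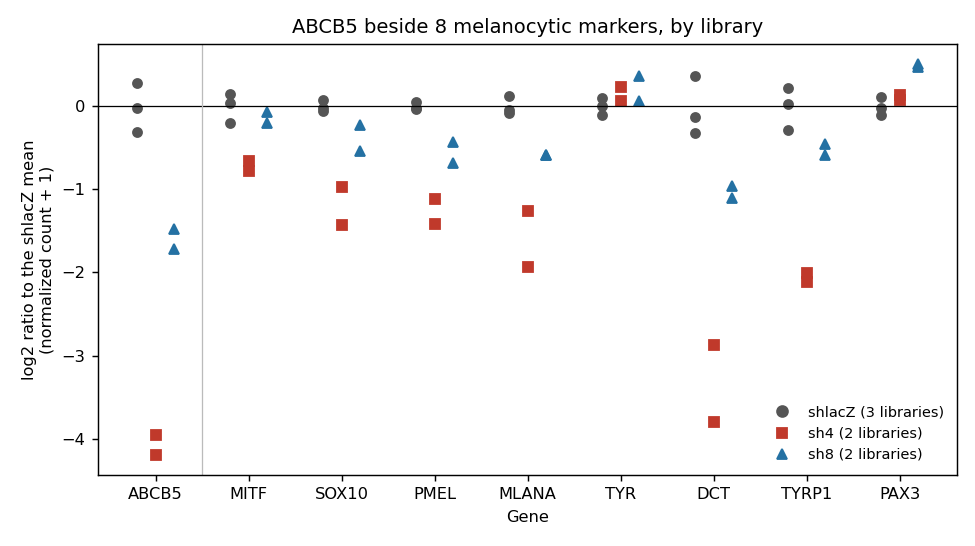
Log2 ratio of each library to the shlacZ mean, on normalized count + 1, for ABCB5 and 8 melanocytic markers (circles shlacZ, squares sh4, triangles sh8). ABCB5 and DCT lie lowest with sh4, and TYR and PAX3 stay at or above the control level.

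The RefSeq promoters of 4 members that passed are shown here. They are the 3 that passed with both hairpins together and have an entry, and ABCC10. ABCC10 was picked because it alone, of the members that passed and have an entry, holds the E-box CACGTG. Each window runs from 250 bases before to 50 bases after an annotated start (RefSeq, GRCh38.p14), is written 5′ to 3′ on the strand of the gene, and has in capitals, on either strand, every CCAAT box, every GC box written GGGCGG, every TATA box written TATAAA and every E-box written CACGTG. For ABCB1 the downstream of the annotated starts is shown, and for ABCC10 and ABCD2 the upstream. The other ABCC10 window held GGGCGG and no CACGTG. The other ABCD2 window held CCAAT and TATAAA, and the other ABCB1 window held none of these motifs.
ABCD2 (chr12:39619754-39620053, minus strand): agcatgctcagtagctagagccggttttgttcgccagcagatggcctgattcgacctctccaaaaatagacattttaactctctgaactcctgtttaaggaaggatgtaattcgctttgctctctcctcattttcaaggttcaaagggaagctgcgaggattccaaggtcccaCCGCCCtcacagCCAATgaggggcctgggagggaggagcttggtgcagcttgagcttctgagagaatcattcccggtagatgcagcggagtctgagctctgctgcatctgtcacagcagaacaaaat
ABCB1 (chr7:87600835-87601134, minus strand): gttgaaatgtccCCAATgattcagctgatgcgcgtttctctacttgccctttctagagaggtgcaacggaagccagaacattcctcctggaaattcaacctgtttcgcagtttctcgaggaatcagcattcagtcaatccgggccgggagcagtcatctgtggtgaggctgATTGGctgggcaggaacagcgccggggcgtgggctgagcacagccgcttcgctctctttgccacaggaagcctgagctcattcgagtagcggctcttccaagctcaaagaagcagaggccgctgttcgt
ABCC4 (chr13:95301402-95301701, minus strand): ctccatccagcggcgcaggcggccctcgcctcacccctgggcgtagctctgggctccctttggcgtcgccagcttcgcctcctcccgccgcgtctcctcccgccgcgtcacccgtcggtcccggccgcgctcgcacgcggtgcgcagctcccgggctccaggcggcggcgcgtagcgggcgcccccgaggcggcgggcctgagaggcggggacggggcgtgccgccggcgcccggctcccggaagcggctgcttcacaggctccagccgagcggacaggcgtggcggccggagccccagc
ABCC10 (chr6:43427291-43427590, plus strand): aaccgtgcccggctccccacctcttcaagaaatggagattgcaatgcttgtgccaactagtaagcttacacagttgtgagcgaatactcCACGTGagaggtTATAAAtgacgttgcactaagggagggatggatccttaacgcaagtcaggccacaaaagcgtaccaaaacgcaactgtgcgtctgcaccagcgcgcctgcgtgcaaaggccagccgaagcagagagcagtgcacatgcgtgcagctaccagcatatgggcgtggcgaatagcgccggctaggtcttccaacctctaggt
The ABCB1 and ABCD2 windows shown held CCAAT, and the ABCC4 window, with 79.7% G and C, held none of these motifs. CACGTG, the letters bound by MITF and many other factors of its class, was present in 6 of 38 member promoters (15.8%, 28 of 35 members matched) and in 7.26% of all 35116 promoters of this length. TCATGTG, which does not contain CACGTG, was present in 0 of 38 and in 2.92% of all. CCAAT was present in 23.7% and 34.6%, GGGCGG in 60.5% and 45.0%, and TATAAA in 18.4% and 11.5%. A match is a description of the letters and not a measured site.

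Among the B subfamily, ABCB1 (P-glycoprotein, the multidrug exporter, ENSG00000085563, chromosome 7, 87503017 to 87713323) rose. Its normalized counts were 300, 297 and 362 with shlacZ, 980 and 1373 with sh4 and 464 and 785 with sh8. Every knockdown library lay above every control, and sh4 lay above sh8. The log2 fold change was 1.39 (SE 0.30, adjusted p = 0.0340) for both hairpins, 1.86 (SE 0.23, adjusted p = 0.000625) for sh4 and 0.92 (SE 0.23, adjusted p = 0.0670) for sh8, which did not pass. Its neighbour ABCB4, a phosphatidylcholine exporter of bile 22.6 kb away, had log2 fold changes of 0.53 under both hairpins, with adjusted p of 0.0649 for sh4 and 0.169 for sh8. ABCB10, a mitochondrial transporter linked to heme synthesis, was at 558, 656 and 600 with shlacZ, 394 and 382 with sh4 and 551 and 541 with sh8. It fell under sh4 (-0.64, SE 0.13, adjusted p = 0.00859), a result lost without the first (adjusted p = 0.0518) or second sh4 library (adjusted p = 0.0656).

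ABCC4, which exports cyclic nucleotides and prostaglandins (ENSG00000125257, chromosome 13, 95019835 to 95301475), fell under each hairpin. It was at 1242, 1319 and 1114 with shlacZ, 556 and 605 with sh4 and 803 and 845 with sh8. The groups did not overlap, and sh4 was lowest. The log2 fold change was -0.82 (SE 0.17, adjusted p = 0.0289) for both hairpins, -1.07 (SE 0.13, adjusted p = 0.000524) for sh4 and -0.57 (SE 0.13, adjusted p = 0.0462) for sh8. The sh8 result did not pass without any 1 library other than the first shlacZ library, with adjusted p of 0.0732 to 0.238, nor by limma-voom on the recovered reads (0.0524), with no minimum mean (0.0558), quantile normalization (0.0509), no variance trend (0.129) or only the 2 groups compared (0.0712).

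Of the other C members, 3 passed under sh4 and did not pass under sh8. ABCC1, a glutathione conjugate exporter, was at 1502, 1613 and 1549 with shlacZ, 1098 and 1060 with sh4 and 1280 and 1258 with sh8 (-0.53 for sh4, adjusted p = 0.00818). ABCC10, a drug exporter, was at 382, 383 and 379, then 550 and 493, then 464 and 426 (0.45 for sh4, adjusted p = 0.0410). ABCC2 was at 5266, 5011 and 4626, then 6551 and 6313, then 6207 and 5610 (0.37 for sh4, adjusted p = 0.0382). Both sh8 libraries lay beyond every control on the same side as sh4 for these 3 genes, and the difference between sh4 and sh8 did not pass (adjusted p = 0.293, 0.419 and 0.615). The ABCC10 and ABCC2 results were lost without any 1 library other than the first shlacZ library, with adjusted p of up to 0.239 and 0.184, and both with no variance trend (0.0569 and 0.0973) or only the 2 groups compared (0.0602 and 0.0569). The ABCC10 result was also lost with no minimum mean (adjusted p = 0.0541), and the ABCC1 result without the second sh4 library (-0.50, adjusted p = 0.0639).

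ABCD2, a peroxisomal importer of very long-chain fatty acids (ENSG00000173208, chromosome 12, 39550033 to 39619803), rose from a very low level. It was at 4.13, 6.28 and 4.35 with shlacZ, 40.7 and 51.5 with sh4 and 21.1 and 19.1 with sh8. The groups did not overlap, and the level was 9.36-fold higher under sh4 and 4.08-fold higher under sh8. The log2 fold change was 2.42 (SE 0.44, adjusted p = 0.0199) for both hairpins, 3.0 (SE 0.41, adjusted p = 0.00103) for sh4 and 1.85 (SE 0.41, adjusted p = 0.0448) for sh8. The sh8 result was lost without any 1 library other than the first shlacZ library, with adjusted p of 0.0753 to 0.222, and at a pseudocount of 10 (1.01, adjusted p = 0.0555), with quantile normalization (0.0638) or only the 2 groups compared (0.107). ABCD3 and ABCD4 did not pass in any comparison, and their log2 fold changes under sh4 were -0.07 and -0.33. ABCD2 stayed far below ABCD3, at 7.33 per kb under sh4 against 804 per kb for ABCD3.

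**Figure D4:**
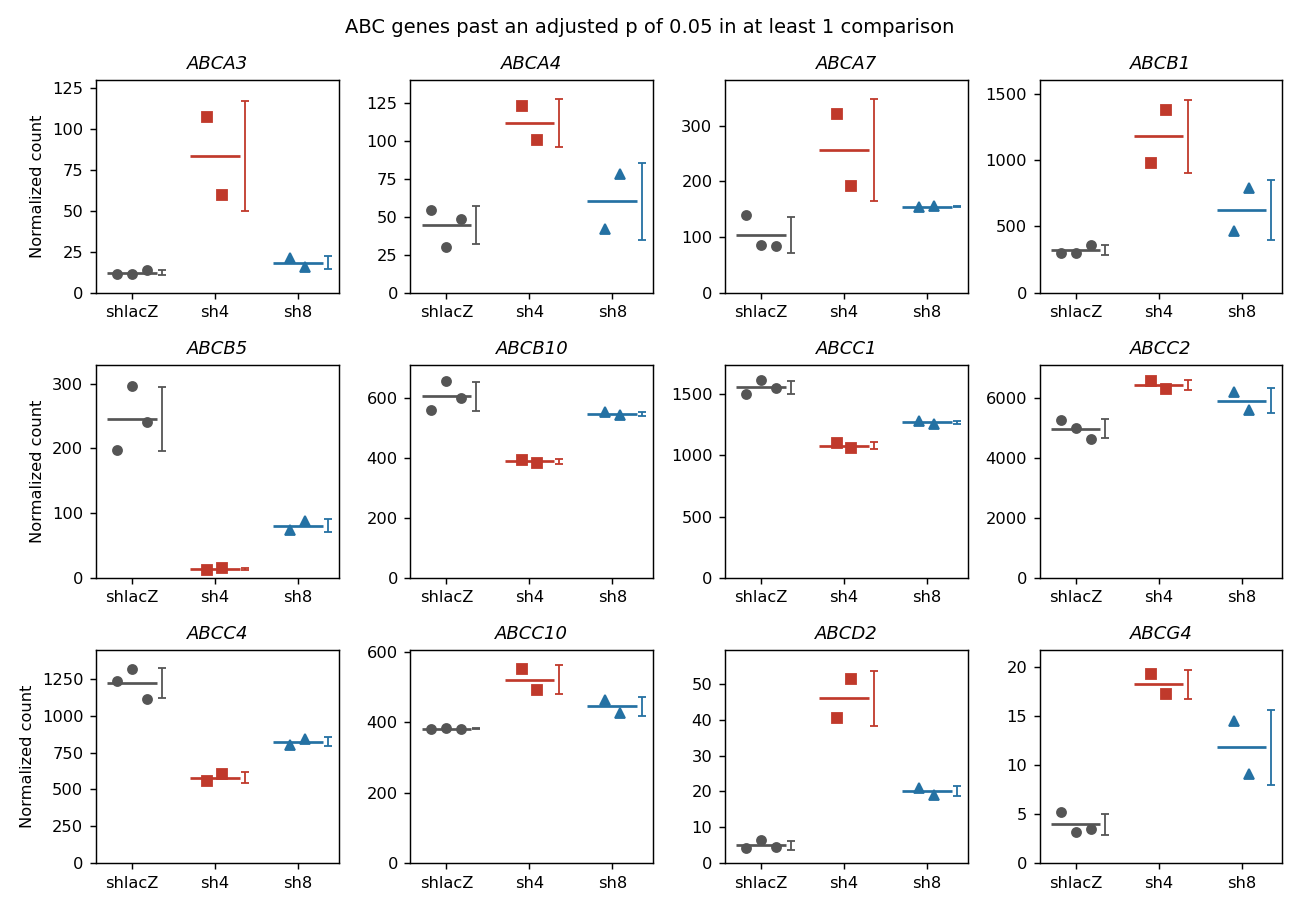
Normalized counts of the 12 ABC genes past an adjusted p of 0.05 in at least 1 comparison, 1 point per library, with the group mean as a line and its SD beside it, on axes from 0. ABCB5 drops to 13.7 under sh4, ABCD2 rises to 46.1, and for most panels sh8 lies between shlacZ and sh4.

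In subfamily A, 3 members rose under sh4. ABCA3, which loads surfactant lipids into lamellar bodies, was at 11.4, 11.5 and 13.9 with shlacZ, 107 and 59.7 with sh4 and 21.1 and 15.5 with sh8 (sh4 log2 fold change 2.62, SE 0.38, adjusted p = 0.00140). ABCA4, the retinal transporter of retinoid lipids, was at 54.7, 30.4 and 48.7, then 123 and 101, then 42.2 and 78.3 (1.34, SE 0.35, adjusted p = 0.0212). ABCA7, a phospholipid transporter linked to phagocytosis, was at 140, 85.9 and 84.4, then 321 and 192, then 154 and 156 (1.29, SE 0.29, adjusted p = 0.0105). Both sh4 libraries exceeded all controls for these 3 genes, and the sh8 libraries overlapped the controls for ABCA4. The ABCA7 result was lost without the first sh4 library (0.92, adjusted p = 0.131), and the ABCA4 result without the second shlacZ library (1.09, adjusted p = 0.0636), the first sh4 library (1.20, adjusted p = 0.162) or the second (1.49, adjusted p = 0.0886). In subfamily G, ABCG4, a sterol exporter of brain, was at 5.16, 3.14 and 3.48, then 19.2 and 17.2, then 14.5 and 9.10 (1.98, SE 0.50, adjusted p = 0.0196 for sh4). The ABCG4 result was lost without the second shlacZ library (1.87, adjusted p = 0.0504), the first sh4 library (1.90, adjusted p = 0.126) or the second (2.06, adjusted p = 0.0969).

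Between the hairpins, 1 member passed as higher in sh4, against 3.67% of all tested genes, and 1 as lower, against 3.33%. Both were called (6.45% of 31, against 3.19%). ABCA3 was higher in sh4 (log2 difference 2.09, SE 0.42, adjusted p = 0.0167) and ABCB5 lower (-2.48, SE 0.28, adjusted p = 0.00183). The ABCA3 difference was lost without either sh4 library or either sh8 library, with adjusted p of 0.0722 to 0.148. For ABCB1 (0.94, SE 0.25, adjusted p = 0.0539) and ABCC4 (-0.51, SE 0.14, adjusted p = 0.0588), the difference did not pass. The hairpins thus differed in the size of the ABCB5 response, while both lowered it.

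Of the 3 calls of both hairpins together, the ABCB1, ABCB5 and ABCD2 results did not pass without shlacZ replicate 2 or 3 or either sh4 library, and ABCB1 and ABCB5 also without the first shlacZ library. Adjusted p then reached 0.153, 0.172 and 0.0784. The ABCC4 result did not pass without any shlacZ or sh4 library, with adjusted p of up to 0.146. With no variance trend ABCB1 (adjusted p = 0.0926), ABCB5 (0.0991) and ABCC4 (0.0806) did not pass. As the mean of both hairpins in the fit with 3 groups, ABCB1 (adjusted p = 0.00178, limma), ABCB5 (0.000157), ABCC4 (0.00128) and ABCD2 (0.00197) passed. The sh4 calls of ABCB5, ABCB1, ABCD2, ABCA3 and ABCC4 passed without any 1 library.

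The 19 members that did not pass under sh4 lay between -0.83 (ABCA8) and 0.64 (ABCC9), and the 28 under sh8 lay between -0.72 (ABCE1) and 1.37 (ABCG4). ABCE1 was at 4075, 5841 and 5141 with shlacZ, 3763 and 5782 with sh4 and 3315 and 2738 with sh8 (sh8 adjusted p = 0.0924). The 3 F members, ABCF1, ABCF2 and ABCF3, had log2 fold changes of -0.36 to 0.02 under sh4. ABCF2 and the readthrough gene ABCF2-H2BK1 share exons on one strand, so how their reads were divided is uncertain.

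Partner genes of the family were taken from a list of 44 genes, of which 40 were listed and 39 tested. With both hairpins together 1 passed as lower, the mitochondrial iron importer SLC25A37 (-0.46, adjusted p = 0.0497), and 0 by limma-voom, with 6 at an unadjusted p under 0.05. In the same way, under sh8 alone 0 passed by limma or limma-voom, with 5 at an unadjusted p under 0.05. Under sh4 5 passed as higher and 6 as lower, where 10.5% and 11.9% of all tested genes did, and the median log2 fold change was -0.18 against -0.01 over all tested genes. The peptide transporter TAP2, an ABC relative, fell from 917 to 489 under sh4 (log2 fold change -0.91, adjusted p = 0.00118) and stood at 823 under sh8 (mean normalized counts), whereas its partner TAP1 was at 119, 155 and 116 in shlacZ, sh4 and sh8 and did not pass. TAPBP, which bridges TAP and class I molecules, rose under sh4 (0.55, adjusted p = 0.0158). PELO, which works with ABCE1 on stalled ribosomes, rose from 254 to 758 under sh4 (1.61, adjusted p = 0.00452) and was at 256 under sh8, while the release factor ETF1 fell under sh4 (-0.60, adjusted p = 0.0245).

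Of the sterol genes, APOE (0.67, adjusted p = 0.0261) and NR1H2 (0.58, adjusted p = 0.0304), a nuclear receptor that drives ABCA1, rose under sh4, and the lipoprotein receptor SCARB1 fell (-0.70, adjusted p = 0.00290). GSTP1, which makes the glutathione conjugates exported by C members, fell (-0.73, adjusted p = 0.0140), and GSS, a glutathione synthesis enzyme, rose (0.46, adjusted p = 0.0311). NFS1, of iron-sulfur cluster assembly, and SLC25A37 fell under sh4 (-0.52 and -0.44, adjusted p = 0.0211 and 0.0302). Of the peroxisome import genes, which serve the peroxisomal D members, 0 of 4 passed in any of the 4 comparisons by limma or limma-voom. At an unadjusted p under 0.05 there were 3 under sh4 and 2 between the hairpins. Between the hairpins NPC1 and PELO were higher in sh4 and TAP2 lower (0.78, 1.53 and -0.75, adjusted p = 0.0198, 0.0215 and 0.0124). CFTR, TAPBPL and the channel genes KCNJ8 and KCNJ11 had no entry under these names in the expression table, so they were not tested.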

How the data were processed

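RNA from 501Mel cells was depleted of ribosomal RNA and sequenced as stranded libraries. Per the study's methods, adapters were trimmed with Cutadapt, reads were mapped to hg38 with STAR and quantified with Salmon, and the authors gave the count matrix to DESeq2. Versions and the annotation release are not given in the sources used here. The authors deposited 1 table of normalized counts, that is, counts divided by a size factor per library, for 21305 genes, of which none had under 10 reads in sum. Such scaling hides any shift that affects most genes alike. Of the values, 100% were whole multiples (within 0.001) of the value of 1 read, and reads recovered this way gave the depth and an alternative test.

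Values were compared as log2(normalized count + 1) with limma 3.58.1 (R 4.3.3, variance trend) for 15420 genes with a mean of at least 10. Both hairpins together were compared with shlacZ in a fit with 2 levels. The hairpins were taken singly in a 3-group fit with a common variance. A replicate block, other pseudocounts, minimum means and scalings, limma-voom, and leaving out each library were alternatives. All negative binomial tests were left out because the decimals of the table kept it from being declared as counts. Transcript lengths and coordinates came from GENCODE release 44. The fits were tested on simulated data.

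Named were ABCB5, GRASLND, members past an adjusted p of 0.05 in any comparison, the leading member of each subfamily, members near zero, TAP1, TAP2 and partners that passed. ABCA8, ABCB4, ABCC5, ABCC9, ABCE1 and the remaining members were named with values already seen. Members and lists were chosen with earlier results of these data known. Length as merged exons was an alternative added after seeing the data. The values of 1 member and 1 marker gene are not reported here, although counts and sums over the lists include them.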

Additional observations from a re-analysis of the deposited data

Results flagged for a closer look

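ABCB5 differed between the hairpins, with a log2 difference of sh4 minus sh8 of -2.48 (SE 0.28, adjusted p = 0.00183, limma), although both hairpins lowered it. ABCA3 also differed, with sh4 higher by 2.09 (SE 0.42, adjusted p = 0.0167, limma). Of 31 members, 2 had 1 of the 4 knockdown libraries far from the others on the log2 scale. About 1 in 20 would be flagged by chance if all 4 libraries came from 1 group. They come from 2 hairpins, so that rate need not hold here. The gap to the nearest library was 0.877 of the range for ABCA8, with the first sh8 library high at 21.1 against 7.91 to 8.96, and 0.891 for ABCC5, with the first sh8 library low at 1802 against 2089 to 2127 (normalized counts).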

How the results depend on the processing

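No ABC result changed direction under any alternative run. Of 334 alternative values for 20 results on members, 258 kept their side of the threshold and 76 fell short of it. Members called with both hairpins together numbered 3, with 5 as the mean of both hairpins in the fit with 3 groups, 4 with no minimum mean, and 0 to 4 without single libraries. With that mean 11 members passed the adjusted p, against 4 in the main fit. Called under sh4 were 8, with 9 with no minimum, where ABCA9 was the gene added in both comparisons, 5 at a minimum mean of 50 and 5 to 8 without single libraries. Called under sh8 were 2, with 1 at a pseudocount of 10, a minimum mean of 50, quantile normalization or only the 2 groups compared, and 0 to 2 without single libraries. Between hairpins 2 were called, with 1 at a minimum mean of 50 and 1 to 2 without single libraries. A higher minimum tests fewer members, and the cause was not tested for the others.

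For both hairpins together, GRASLND was at -0.80 (adjusted p = 0.0523) with upper quartile scaling and -0.85 (0.0806) with no variance trend, and -0.99 to -0.73 without single libraries. ABCB5 was at -2.82 (0.0991) with no variance trend and -3.27 to -2.36 without single libraries. Taken as the mean of both hairpins in the fit with 3 groups, GRASLND was at -0.85 (adjusted p = 0.00967, limma) and ABCB5 at -2.82 (0.000157). All genes called with both hairpins together numbered 307, with 108 at no variance trend, 621 as the mean of both hairpins and 56 to 524 without single libraries. They numbered 1259 under sh4 (769 to 1600), 178 under sh8 (57 at no variance trend, 51 to 411) and 492 between hairpins (134 to 639).

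With the replicate number as a block, 0 members and 42 genes in all were called with both hairpins together, with GRASLND at -0.90 (adjusted p = 0.150) and ABCB5 at -2.82 (0.190). ABCB1 (0.136), ABCC4 (0.133) and ABCD2 (0.129) did not pass either. Under the block 8 were called under sh4, where ABCC10 (0.0790) and ABCC2 (0.0789) no longer passed, and 2 between hairpins, where 5 passed the adjusted p against 2 without it. Under sh8 2 were called, ABCB5 and ABCB1, while ABCD2 was not (0.0783). The labels do not say whether the replicate numbers pair the samples, and the main fits did not pair them. Deviations of same-numbered libraries correlated at -0.08 to 0.34. With 2 libraries per hairpin the deviations mirror each other, so these correlations cannot decide whether the numbers pair the samples. Depth limits what could be seen of the near-zero members.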
